A study of Rattus norvegicus with 2 samples.

Results

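Genes of fatty acid oxidation and targets of PPAR-alpha, a nuclear receptor that fatty acids activate, were described in the kidneys of salt-loaded Dahl salt-sensitive rats. They were taken from a list of 40 gene symbols, set by pathway with earlier results of these data known, and 39 of these were among the 22093 gene symbols with a probe set of their own on the array. Acad11 had no such probe set and was not analysed here. Echs1 had 2 probe sets, of which the brighter stood for the gene, and the other 38 genes had 1 each.

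A fatty acid that enters a cell is bound by carrier proteins and joined to coenzyme A. The carnitine shuttle then moves it into mitochondria, where repeated rounds of dehydrogenation, hydration, a further dehydrogenation and thiolytic cleavage shorten it and pass electrons to the respiratory chain. Peroxisomes run a related cycle, started by oxidases, on very long and branched chains. The proximal tubule of the kidney draws much of its energy from this oxidation, and PPAR-alpha, with its partner RXR and the coactivator PGC-1alpha, keeps many of the genes transcribed.

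Both groups consisted of male Dahl salt-sensitive rats, obtained at 3 weeks of age. DSH+2.5%SF rats were given chow with 8% NaCl and, starting 1 week later, sucroferric oxyhydroxide (SF) at 25 mg per g of chow. SF is an iron-containing drug that binds phosphate in the gut. DSH rats were given the salt chow alone, so that both groups were salt-loaded, and whole kidneys were taken at 4 weeks, with an overnight fast before blood sampling. The labels name the samples 2.5%SF and control, and the salt diet is known from the study's methods. For either group the RNA of 3 rats was combined into a single pool and measured on 1 array, so there is no replicate error and no p-value, and differences between the pools cannot be told apart from differences among the rats in them. In whole kidney, fewer cells of a type and less RNA per cell cannot be told apart.

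Each gene is given by its intensity in the DSH+2.5%SF pool and in the DSH pool, on the linear scale of the array, and by the log2 ratio of DSH+2.5%SF over DSH. Intensities of different probe sets are not compared with each other. A gene was called higher when its ratio was at least 1.5 and its Z-score at least 2.0, and lower when its ratio was at most 0.66 and its Z-score at most −2.0, where the Z-score is the log2 ratio less the mean of all 68842 probe sets (0.03), divided by their SD (0.34). The Z-score was the stricter of the criteria, with limits at log2 ratios of 0.71 and −0.65.

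Of the 39 genes, 1 was lower in the DSH+2.5%SF pool, Echs1, which encodes the mitochondrial enoyl-CoA hydratase, and 0 were higher. Over all gene symbols 1.36% were called lower and 1.09% higher, so the count among the fatty acid oxidation genes was near the background. By the ratio criterion alone 1 of the 39 was higher (Pex11a) and 2 were lower (Acadvl and Echs1), against 1.98% and 1.83% of all gene symbols. Their log2 ratios were mostly small, 15 within 0.1 and 30 within 0.3 of 0. The ratio was below 0 for 24 genes, above 0 for 13 and exactly 0 for 2. The median was −0.10 (quartiles −0.22 and 0.03), against 0 for all gene symbols, of which 47.5% were below 0. Most of the genes were bright, 34 of 39 reaching in 1 or both pools the 75th percentile of all intensities (83.8), and these 34 had a median of −0.13, with 23 below 0. Among the 8269 gene symbols as bright, the median was −0.06, 58.7% were below 0, 1.44% were called higher and 2.36% lower.

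**Figure D1:**
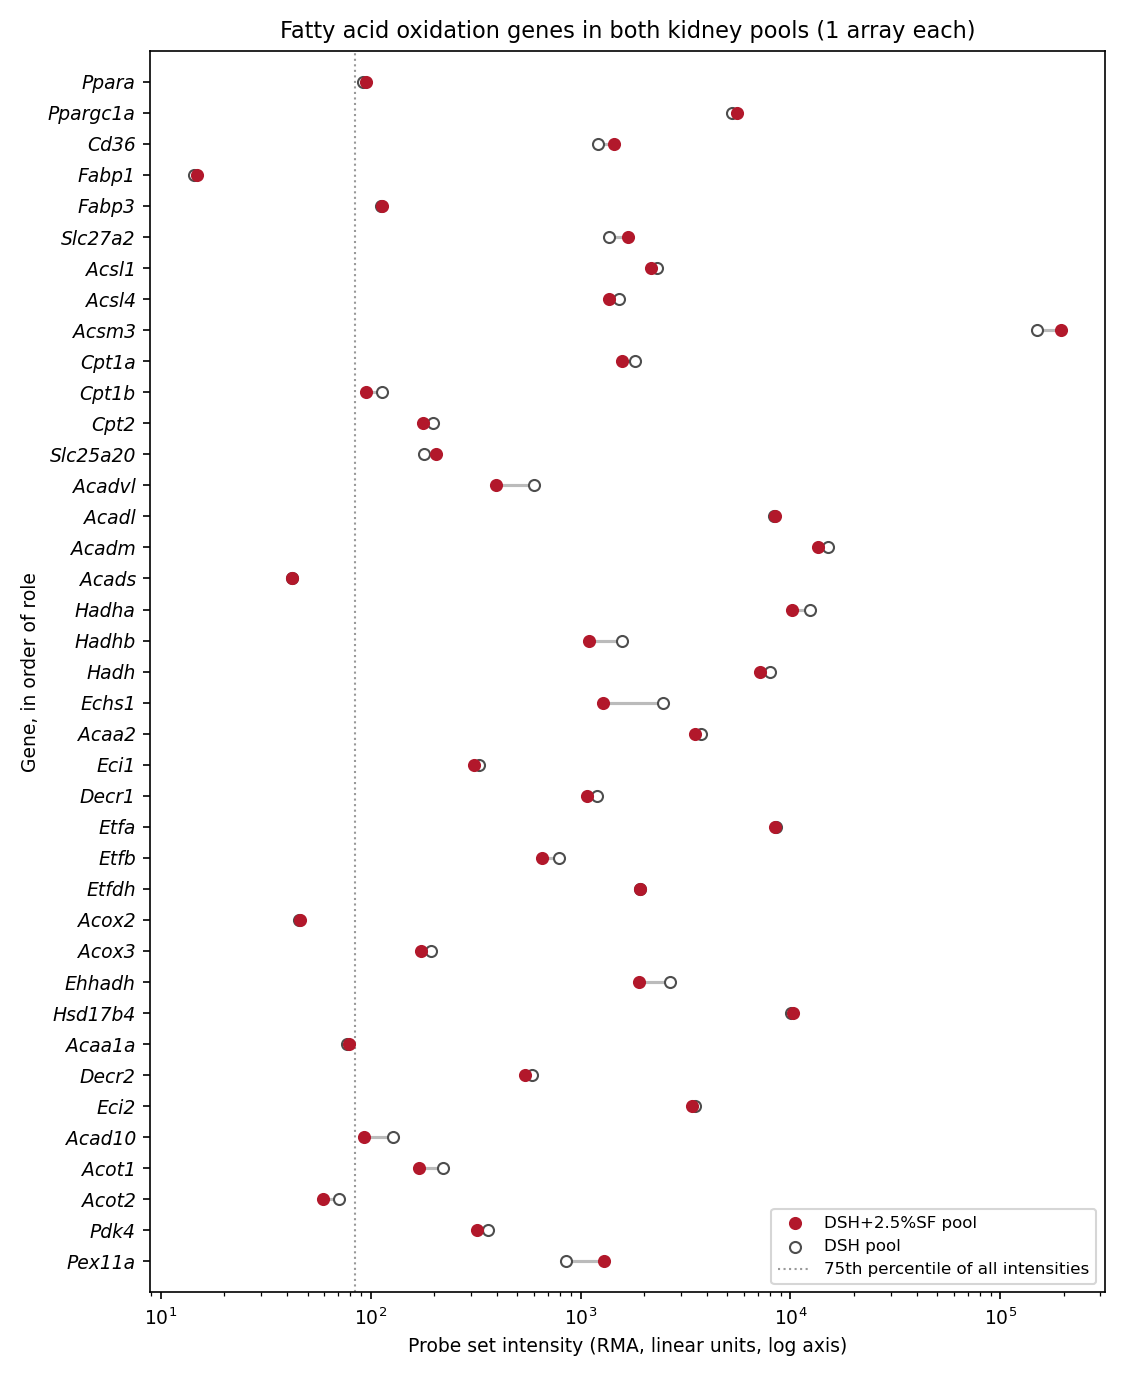
Intensity of the 39 measured genes (log axis) in the DSH+2.5%SF pool (filled) and the DSH pool (open), 1 array each, in order of role, with a dotted line at the 75th percentile of all intensities (83.8). For most genes both points nearly coincide, and Echs1, at 1281 in the DSH+2.5%SF pool and 2462 in the DSH pool, shows the widest gap.

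The regulators at the head of the pathway differed little. Ppara, the receptor itself, had an intensity of 94.9 in the DSH+2.5%SF pool and 91.7 in the DSH pool (log2 ratio 0.05). Ppargc1a, which encodes the coactivator PGC-1alpha, had 5566 in the DSH+2.5%SF pool and 5282 in the DSH pool (0.08). Neither log2 ratio came near the limits of a call, and Ppara was only just above the 75th percentile of intensities.

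Genes of fatty acid uptake, binding and activation had mostly log2 ratios above 0, 5 of 7, with a median of 0.06 and none called. Acsm3, a mitochondrial medium-chain acyl-CoA synthetase first known from the kidney of hypertensive rats as the SA gene, had 195380 in the DSH+2.5%SF pool and 149174 in the DSH pool (0.39). Slc27a2, a very-long-chain acyl-CoA synthetase and fatty acid transporter, had 1679 in the DSH+2.5%SF pool and 1358 in the DSH pool (0.31). Cd36, the scavenger receptor that takes up long-chain fatty acids, had 1446 in the DSH+2.5%SF pool and 1213 in the DSH pool (0.25). The ratios of these 3 genes, 1.19 to 1.31, were the largest of the group and short of the criterion of 1.5. The long-chain acyl-CoA synthetases Acsl1 and Acsl4 had log2 ratios of −0.10 and −0.16. The fatty acid binding proteins Fabp1 (0.06) and Fabp3 (0.02) hardly differed, and Fabp1, the liver type, was dim in both pools at 14.9 with SF and 14.3 without.

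In the carnitine shuttle, 3 of 4 log2 ratios were below 0, with a median of −0.18 and none called. Cpt1a, the outer membrane carnitine palmitoyltransferase of most tissues and the step that sets the rate of entry, had a log2 ratio of −0.20, with 1583 in the DSH+2.5%SF pool and 1824 in the DSH pool. Cpt1b, the muscle type of that enzyme, had 94.96 in the DSH+2.5%SF pool and 113 in the DSH pool (−0.26). Cpt2, the inner membrane transferase, had a log2 ratio of −0.16. The carrier between these enzymes, Slc25a20, had the only ratio above 0 in the shuttle, 0.18, with 204 in the DSH+2.5%SF pool and 180 in the DSH pool.

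The enzymes of mitochondrial beta-oxidation held the one call and the widest range. Of 11 genes 9 had a log2 ratio below 0, 1 above and 1 at 0, and the median was −0.16. Echs1, which hydrates short-chain enoyl-CoAs, had 1281 in the DSH+2.5%SF pool and 2462 in the DSH pool, 1.92-fold lower with SF (log2 ratio −0.94, Z-score −2.87). This ratio stood at percentile 0.235 of all gene symbols. A second probe set of Echs1 had 1252 in the DSH+2.5%SF pool and 1882 in the DSH pool (−0.59), the same direction but not past the Z-score limit. Echs1 was also not called when the Z-score was taken among the 1000 probe sets nearest in brightness, where it was −1.84. By that rule 0 of the 39 genes were called, against 1.05% of all gene symbols higher and 0.883% lower.

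Among the acyl-CoA dehydrogenases, which carry out the first step and are named for the chain length they prefer, the very-long-chain one stood apart. Acadvl had 395 in the DSH+2.5%SF pool and 603 in the DSH pool (−0.61), which met the ratio criterion but not the Z-score limit (−1.89). Acadm, the medium-chain enzyme, had 13489 in the DSH+2.5%SF pool and 15133 in the DSH pool (−0.17). Acadl, the long-chain enzyme, had 8426 in the DSH+2.5%SF pool and 8376 in the DSH pool (0.01). Acads, the short-chain enzyme, was dim and held the same intensity, 42.0, in both pools, as 7.46% of all probe sets did. The 4 dehydrogenases therefore spread between −0.61 and 0.01.

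The trifunctional protein, which carries out the later steps on long chains at the inner membrane, is built from alpha subunits encoded by Hadha and beta subunits encoded by Hadhb. Hadhb had 1094 in the DSH+2.5%SF pool and 1570 in the DSH pool (−0.52). Hadha had 10116 in the DSH+2.5%SF pool and 12449 in the DSH pool (−0.30). Both were on the lower side and neither was called. For shorter chains, Hadh, the 3-hydroxyacyl-CoA dehydrogenase, had a log2 ratio of −0.15, and Acaa2, the thiolase, one of −0.09. The auxiliary enzymes that prepare unsaturated fatty acids for the cycle, Decr1 and Eci1, had −0.16 and −0.08.

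**Figure D2:**
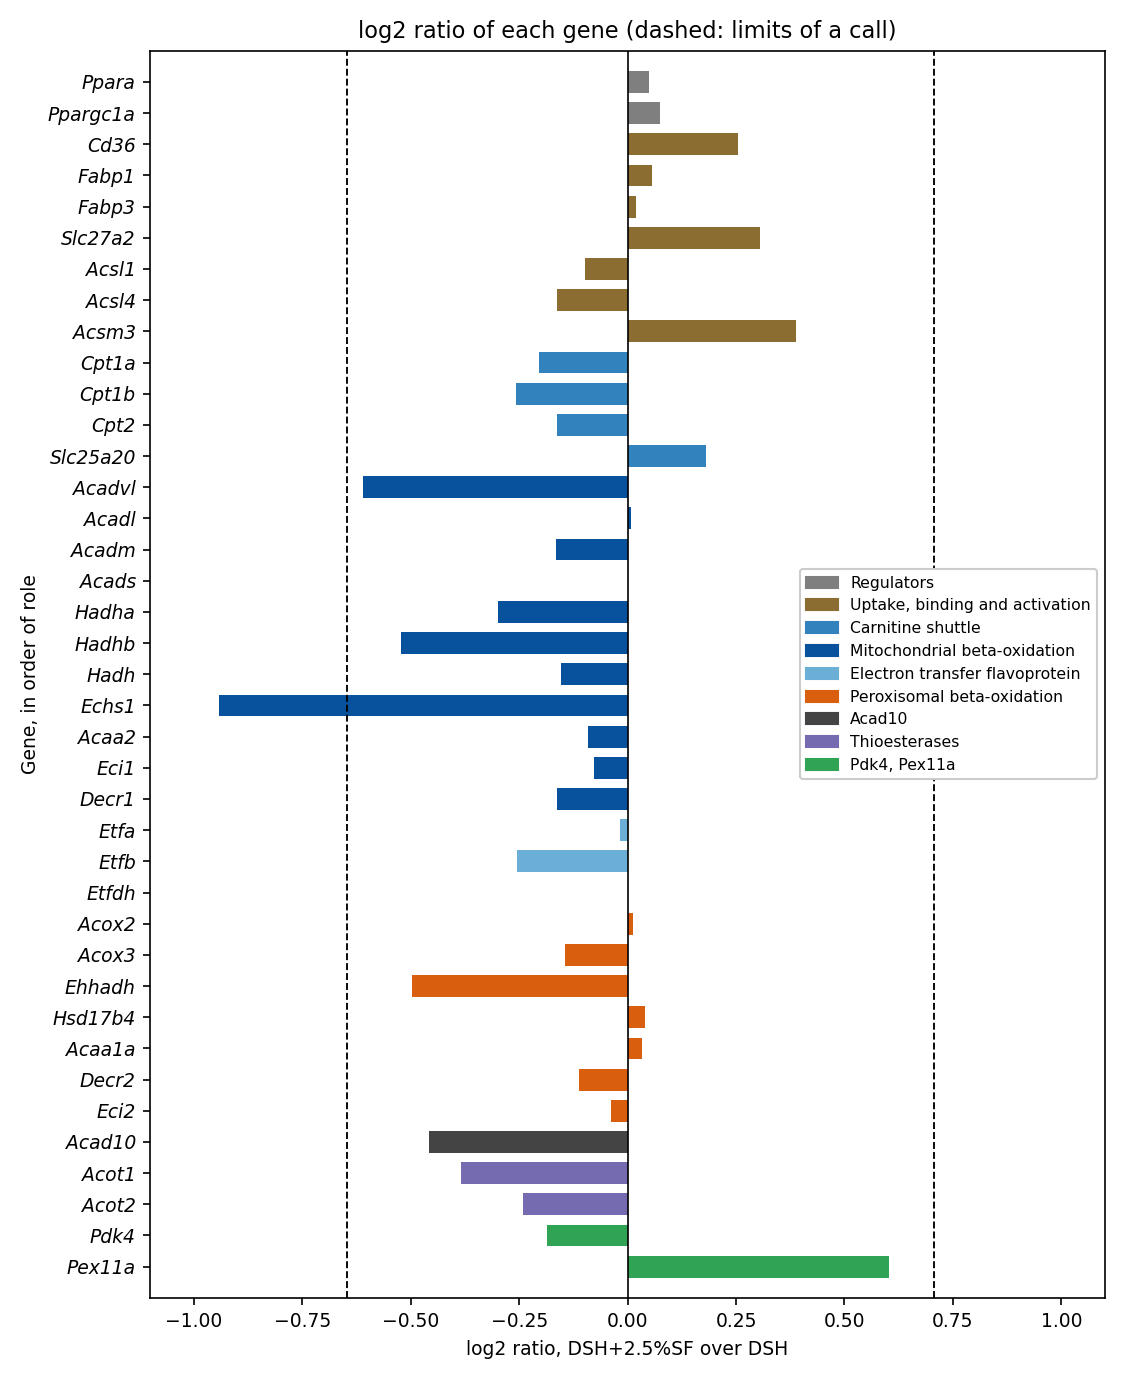
log2 ratio of DSH+2.5%SF over DSH for each of the 39 genes, in order of role and colored by role, with dashed lines at the limits of a call (0.71 and −0.65). Echs1 (−0.94) is the only bar past a limit, Acadvl (−0.61) and Pex11a (0.60) come near one, and Acads and Etfdh have no bar because both pools held the same intensity.

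PPAR-alpha binds DNA together with RXR, classically at 2 copies of the half-site AGGTCA in the same orientation with 1 base between them. The 250 bases before the annotated start were available from RefSeq (assembly GRCr8) for 36 of the 40 listed genes, and were searched on both strands for AGGTCA and for that repeat with at most 1 mismatch. AGGTCA, which many other nuclear receptors also bind and which every repeat found here contains, occurred in 8 of the 36 windows (22.2%), against 14.1% of all 33469 promoters. The repeat occurred in 2 of them, Acadvl and Fabp1, against 0.368% of all promoters. The sequences below are those of the called gene, of both genes with the repeat, and of Hadha, whose window overlaps that of Hadhb. They run 5′ to 3′ towards the start, with matches in capitals (TGACCT is AGGTCA read on the other strand).
Echs1 promoter, chr1:204333507-204333756, minus strand: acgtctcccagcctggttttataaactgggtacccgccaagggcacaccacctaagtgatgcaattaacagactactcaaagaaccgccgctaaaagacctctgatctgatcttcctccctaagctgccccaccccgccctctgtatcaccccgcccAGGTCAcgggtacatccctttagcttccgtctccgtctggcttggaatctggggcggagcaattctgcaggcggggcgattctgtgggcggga
Acadvl promoter, chr10:55236706-55236955, minus strand: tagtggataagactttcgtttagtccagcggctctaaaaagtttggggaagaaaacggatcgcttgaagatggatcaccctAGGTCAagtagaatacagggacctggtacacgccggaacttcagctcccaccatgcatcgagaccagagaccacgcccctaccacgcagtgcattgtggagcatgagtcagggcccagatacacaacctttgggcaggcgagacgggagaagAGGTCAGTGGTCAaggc
Fabp1 promoter, chr4:104749090-104749339, plus strand: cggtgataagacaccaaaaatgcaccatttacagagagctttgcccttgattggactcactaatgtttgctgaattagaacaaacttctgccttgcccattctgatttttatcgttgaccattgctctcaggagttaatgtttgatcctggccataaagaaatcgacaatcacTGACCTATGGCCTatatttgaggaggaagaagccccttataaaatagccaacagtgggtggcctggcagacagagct
Hadha promoter, chr6:31907551-31907800, plus strand: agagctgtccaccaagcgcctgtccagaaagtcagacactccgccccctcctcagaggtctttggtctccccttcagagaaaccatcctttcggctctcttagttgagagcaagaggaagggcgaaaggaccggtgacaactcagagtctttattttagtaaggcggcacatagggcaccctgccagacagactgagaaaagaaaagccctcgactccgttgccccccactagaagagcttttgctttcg

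The Echs1 window held AGGTCA once, 93 bases before the start, and no repeat. The Acadvl window held it at 169 and at 17 bases before the start, and the repeat began at the nearer one. Both genes had log2 ratios below 0, whereas Fabp1, with its repeat 77 bases before the start, had a ratio of 0.06 at a dim intensity. Hadha and Hadhb lie head to head on chromosome 6, and their windows, of which 200 bases are shared, held no match. The other genes with an AGGTCA were Acad11, Acsm3, Eci1, Hsd17b4 and Slc27a2, and the windows of Pex11a and Ehhadh held none. Over the measured genes, those with an AGGTCA had a median log2 ratio of 0.04 (7 genes) and those without one of −0.13. A match in these windows is a description of letters and not of binding. Sequence farther from the start was not searched, so a window without a match does not show that the gene lacks a site.

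Electrons from the dehydrogenases pass to the electron transfer flavoprotein, made of an alpha and a beta subunit, and from it to its oxidoreductase in the inner membrane. Etfb, the beta subunit, had 657 in the DSH+2.5%SF pool and 785 in the DSH pool (−0.26). Etfa, the alpha subunit, had a log2 ratio of −0.02, and Etfdh, the oxidoreductase, held the same intensity, 1928, in both pools. The subunits of the 1 complex thus had unequal ratios, and none was called.

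Peroxisomal beta-oxidation showed one gene apart from a group close to 0. Ehhadh, the bifunctional enzyme of the L-hydroxy pathway and a classic PPAR-alpha target in rodent liver, had 1900 in the DSH+2.5%SF pool and 2681 in the DSH pool (−0.50). It was on the lower side but not called, with a Z-score of −1.56. The other 6 genes lay between −0.14 and 0.04. The oxidases Acox2 and Acox3, which start the cycle on branched chains, had log2 ratios of 0.01 and −0.14. Hsd17b4, the bifunctional enzyme of the D-hydroxy pathway, had 10317 in the DSH+2.5%SF pool and 10030 in the DSH pool (0.04). The thiolase Acaa1a, which has a close paralog in Acaa1b that probes may share, had 0.03, and the auxiliary enzymes Decr2 and Eci2 had −0.11 and −0.04. Acox2 and Acaa1a were below the 75th percentile of intensities.

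Mitochondrial oxidation was then set against peroxisomal oxidation. The 18 mitochondrial genes (carnitine shuttle, beta-oxidation and electron transfer flavoprotein) had a median log2 ratio of −0.16, and 14 of them (77.8%) were below 0. The 7 peroxisomal genes had a median of −0.04, and 4 of them (57.1%) were below 0. Among all gene symbols 47.5% were below 0, and among bright ones 58.7%, with a median of −0.06. The difference between the medians was −0.12 on the log2 scale and the ranges overlapped, from −0.94 to 0.18 for mitochondrial genes and from −0.50 to 0.04 for peroxisomal genes. Without the dim genes the peroxisomal median was −0.11 over 5 genes and the difference −0.05. With no replicates, a contrast of this size between gene groups could not be tested.

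**Figure D3:**
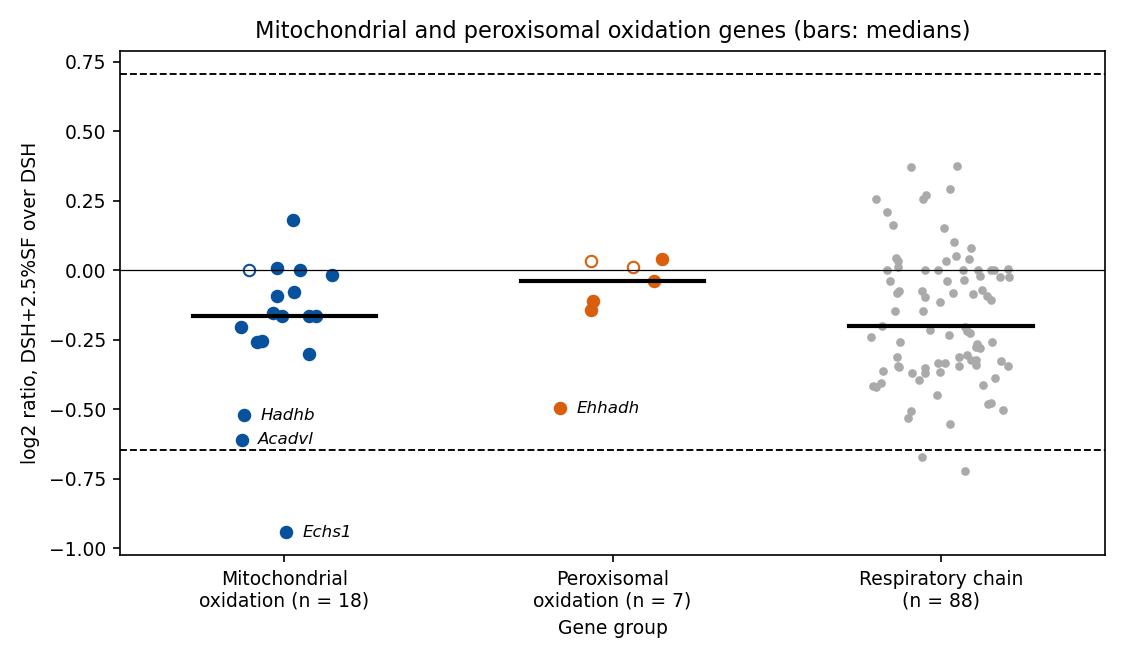
log2 ratio of DSH+2.5%SF over DSH for genes of mitochondrial oxidation (18), peroxisomal oxidation (7) and the respiratory chain by symbol prefix (88), 1 point per gene. Bars mark the medians (−0.16, −0.04 and −0.20) and dashed lines the limits of a call. Open points mark dim oxidation genes. The groups overlap over most of their range, and Ehhadh is the 1 peroxisomal gene far from 0.

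The mitochondrial oxidation genes were also set beside those of the respiratory chain, which takes up their electrons. These were chosen by symbol prefix (Nduf, Sdha to Sdhd, Uqcr, Cox4 to Cox8 and Atp5) after the values had been seen. Symbols ending in ps or in l, with or without digits after it, were left out. The prefixes also took in assembly factors and the ATP synthase, which takes up no electrons. These 88 genes had a median log2 ratio of −0.20, with 63 below 0 (71.6%), against 47.5% of all gene symbols. Of the 88 genes 68 were bright, and 53 of these were below 0, against 58.7% of bright gene symbols. Ndufs6 and Ndufv1, both of complex I, were called lower, against 1.36% of all gene symbols and 2.36% of bright ones. The count was near these shares, and 0 were called higher. Most genes of the respiratory chain thus had ratios below 0, as most of the mitochondrial oxidation genes did, and the difference between these groups was not tested.

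Pex11a, which encodes a peroxisomal membrane protein of peroxisome division and is a PPAR-alpha target in rodents, lay at the other end of the range. It had 1289 in the DSH+2.5%SF pool and 849 in the DSH pool (0.60), a ratio of 1.52 that met the ratio criterion but not the Z-score limit (1.69). This ratio stood at percentile 98.2 of all gene symbols. Pdk4, the pyruvate dehydrogenase kinase that spares glucose when fatty acids are burned and a PPAR-alpha target, had 319 in the DSH+2.5%SF pool and 363 in the DSH pool (−0.19). Pex11a and Ehhadh, both classic peroxisomal targets of the receptor, thus had ratios of opposite sign.

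Acot1 and Acot2, acyl-CoA thioesterases of cytosol and mitochondria that release free fatty acids from coenzyme A, were both below 0. Acot1 had 169 in the DSH+2.5%SF pool and 221 in the DSH pool (−0.38). Acot2 had 59.4 in the DSH+2.5%SF pool and 70.2 in the DSH pool (−0.24), below the 75th percentile of intensities. These are close copies of each other, so their probe sets may share signal. Acad10, a relative of the acyl-CoA dehydrogenases, had 92.5 in the DSH+2.5%SF pool and 127 in the DSH pool (−0.46). None of the 3 was called.

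**Figure D4:**
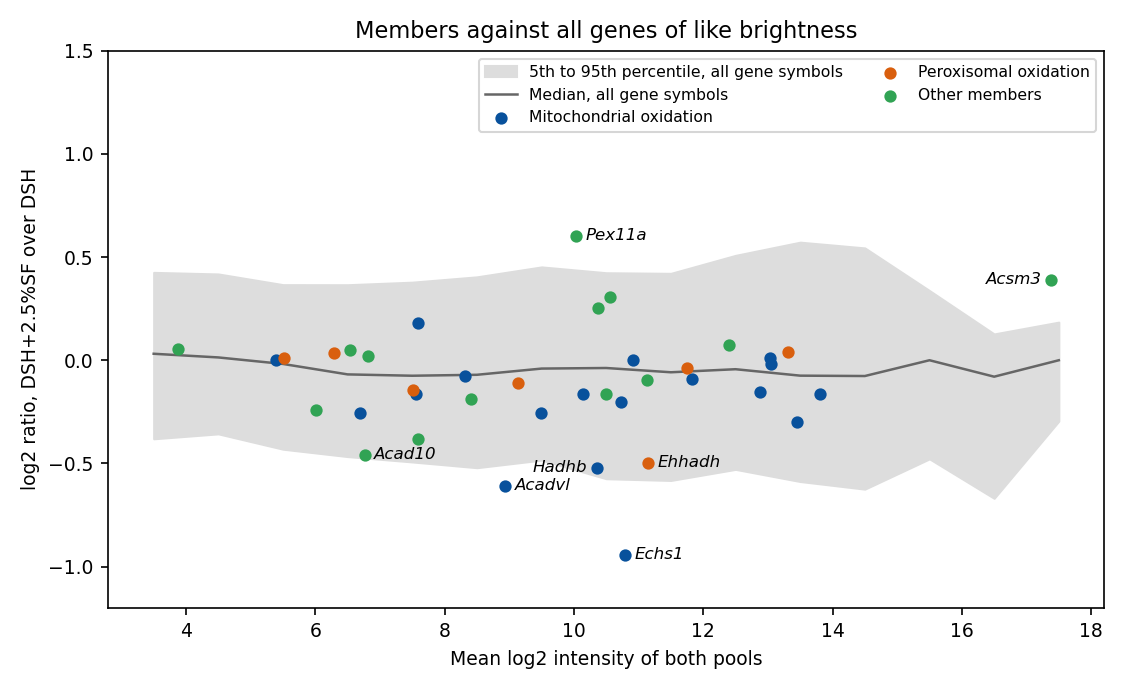
log2 ratio of DSH+2.5%SF over DSH of the 39 genes against the mean log2 intensity of both pools, over the median and the 5th to 95th percentile of all gene symbols in bins of brightness. Of the 39 genes 4 lie outside that range of their bin, Echs1 and Acadvl below it and Pex11a and Acsm3 above it, the last in a bin of 25 genes. By definition the range leaves out the lowest 5% and the highest 5% of all gene symbols in a bin, so the count of 4 is near the background.

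Further genes of lipid oxidation came from 6 lists, of which 128 of 143 genes were measured, with 1 higher, 4 lower and a median log2 ratio of −0.02. Of all gene symbols 1.09% were called higher and 1.36% lower, and of the bright ones 1.44% and 2.36%. Among 23 genes listed as other mitochondrial oxidation and related genes the median was −0.07 and 1 was lower. Some products of that list, such as those of Nudt7 and Slc22a5, lie outside mitochondria. This was Ivd, the isovaleryl-CoA dehydrogenase of leucine breakdown, with 458 in the DSH+2.5%SF pool and 838 in the DSH pool (−0.87). The acetyl-CoA synthetase Acss1 (0.39), the branched-chain dehydrogenase Acadsb (0.34) and the carnitine acetyltransferase Crat (0.34) had the largest ratios above 0 among the bright genes of that list. Among 30 other peroxisomal genes the median was −0.02 and 1 was higher. This was Nudt12, a peroxisomal NADH pyrophosphatase, with 5340 in the DSH+2.5%SF pool and 2669 in the DSH pool (log2 ratio 1.0), while Amacr, the racemase that prepares branched chains for the cycle, had −0.48 and the carrier and thiolase Scp2 had −0.33.

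Among other PPAR targets and regulators 3 of 32 genes were lower, against 1.36% of all gene symbols and 2.36% of bright ones. The median was 0, and the list was chosen with earlier results of these data known, so the count was not tested. Angptl4, a secreted inhibitor of lipoprotein lipase, had 72.0 in the DSH+2.5%SF pool and 136 in the DSH pool (−0.92). Vnn1, a pantetheinase, had 71.4 in the DSH+2.5%SF pool and 133 in the DSH pool (−0.89). Angptl4 and Vnn1 counted as bright only through the DSH pool, and were below the 75th percentile (83.8) with SF. G0s2, an inhibitor of the lipase Pnpla2, had 451 in the DSH+2.5%SF pool and 738 in the DSH pool (−0.71). All 3 are targets of PPARs in rodents, and the call of G0s2 was not made with the Z-score among probe sets of like brightness (−1.65). Retsat, the retinol saturase, had −0.53 and Prkaa2, a catalytic subunit of AMPK, 0.39, while Rxra, the partner receptor, had 0.09.

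Ketone body genes (5 measured, median −0.09), omega oxidation genes (9, median 0.06) and genes of uptake, activation and lipid droplets (29, median −0.06) held no call. In omega oxidation, Aldh1a1 had a log2 ratio of −0.55 and Cyp4a1, a PPAR-alpha-driven omega hydroxylase, 0.34. Cyp4a2 was at 999966 in both pools, so bright that a difference may not be measurable. In the last list Acot12, a cytosolic acetyl-CoA hydrolase, had 0.69 and Acsm5, a mitochondrial acyl-CoA synthetase, 0.62, both past the ratio criterion alone, while Acsl5, a long-chain acyl-CoA synthetase, had −0.51.

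**Figure D5:**
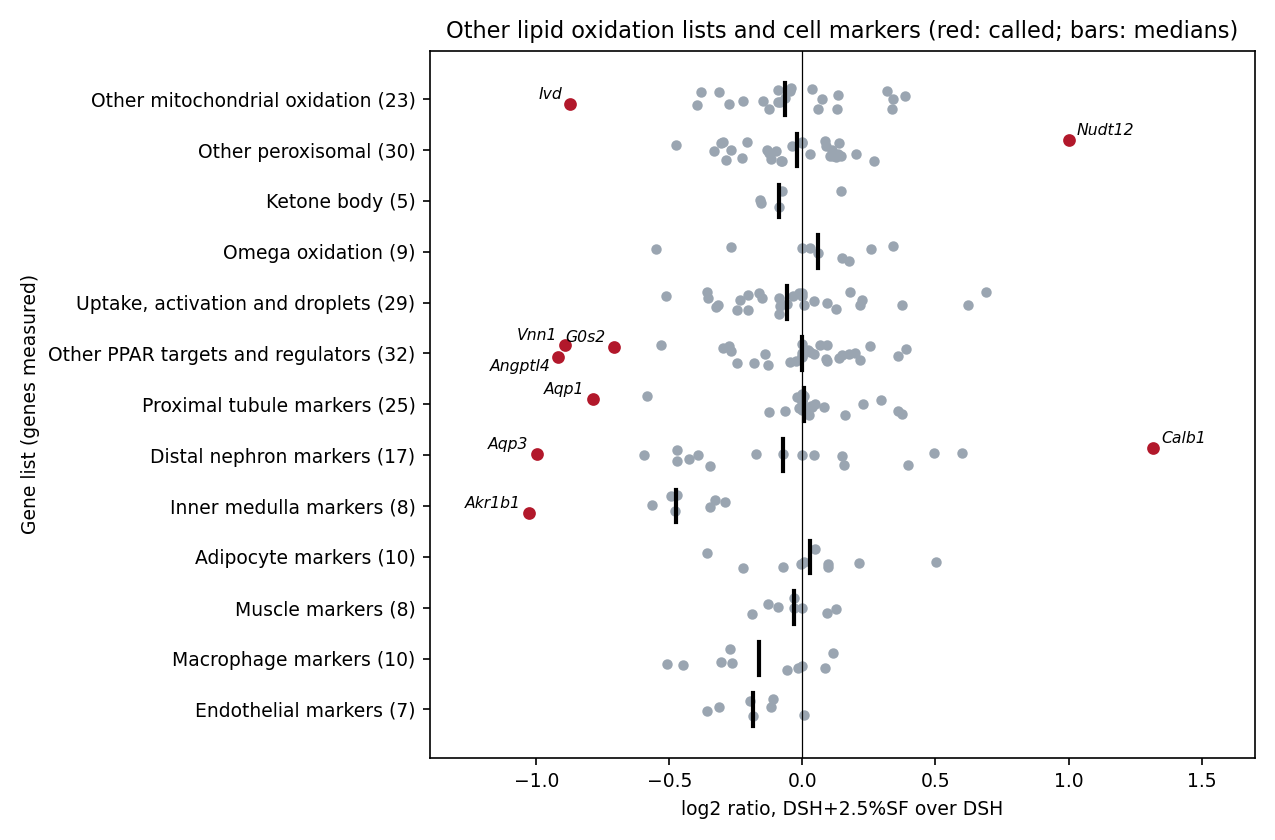
log2 ratio of DSH+2.5%SF over DSH for each measured gene of 6 further lipid lists and 7 lists of cell markers, with bars at the medians and called genes in red and named. Medians of the lipid lists lie between −0.09 and 0.06, and the inner medulla list is the 1 list whose genes all lie below 0 (median −0.47).

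The markers of the kidney's cells were read beside these values. Proximal tubule markers were bright, 24 of 25 measured reaching the 75th percentile, and had a median log2 ratio of 0.01 with 1 lower, the water channel Aqp1, which was not called with the Z-score among probe sets of like brightness (−1.42). The phosphate transporter Slc34a1 held 103542 in both pools, and Lrp2 had 172864 in the DSH+2.5%SF pool and 181082 in the DSH pool. Others differed more, with log2 ratios of −0.59 for Ggt1, 0.37 for Slc22a6 and 0.36 for Slc22a8, none of them called. In this list 13 markers were above 0 and 6 below. Of the 25 markers 6 held the same intensity in both pools, against 7.46% of all probe sets. Among the 6, Slc3a1 was at 999966 in both pools, so bright that a difference may not be measurable. The 8 inner medulla markers were all below 0, with a median of −0.47, and Akr1b1 was lower. Over all gene symbols 47.5% were below 0, and over bright ones 58.7%. Of the 8 markers 5 were bright, Akr1b1 and Slc14a2 only through the DSH pool. Aqp2 was counted among the distal nephron markers as well. The 17 distal nephron markers had a median of −0.07, with Calb1 higher and Aqp3 lower. Over all gene symbols 1.09% were called higher and 1.36% lower, and over bright ones 1.44% and 2.36%. The few calls in these short marker lists were not tested. Macrophage markers (10, median −0.16) and endothelial markers (7, median −0.19) held no call. The 10 adipocyte markers, relevant to Cd36 and the lipid droplet genes, had a median of 0.03 and held no call, with 6 above 0 and 4 below. The 2 bright ones were Adipoq, with 130 in the DSH+2.5%SF pool and 91.9 in the DSH pool, and Cidec, with a log2 ratio of −0.004. Fabp4 had −0.36, and the defining marker Plin1 was dim at 11.9 with SF and 12.5 without. None of 8 muscle markers, relevant to Cpt1b and Fabp3, reached the 75th percentile. The part of a different share of kidney regions or cell types in the log2 ratios of the fatty acid oxidation genes was not tested.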

How the data were processed

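The authors hybridized RNA pooled from 3 rats per group to 1 Clariom D rat array each and deposited RMA intensities (Affymetrix Expression Console 1.4.1, per the submitters' processing notes), background-corrected, normalized between arrays and on a linear scale, which can hide a shift common to all genes. The array's genome build was not given in the sources used here. The platform annotation pairs 23446 of 68842 probe sets with 1 gene symbol, and the 505 with several were not used. A gene was its brightest probe set. Log2 ratios and Z-scores were computed with the thresholds of the study's methods, in Python 3.11.15 with numpy 2.4.6, pandas 2.3.3 and statsmodels 0.14.6. Figures used matplotlib 3.10.9. The code that makes the calls was tested on simulated data, with planted changes larger than that of any gene of the list. The simulation held no variation among rats, so it gives no error for these calls. Each gene of the list is named by role, with intensities for those called, the 12 farthest from 0, Ppara and Ppargc1a and some others, and from each other list those called and up to 4 bright genes with large ratios. The members and lists were chosen with earlier results of these data known. The number of arrays limits the precision. Alternatives were quantile normalization, median centring, a loess trend subtracted, the mean of a gene's probe sets, leaving out dim genes, a Z-score among probe sets of like brightness, other ratio limits and other assignments to compartments, and, added after the values were seen, the second probe set of Echs1.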

Additional observations from a re-analysis of the deposited data

How the results depend on the processing

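No paired analysis was possible because each group had 1 array, and for the same reason no sample could be left out. Echs1 was the only gene of the list called lower, and 0 were called higher, with median centring, quantile normalization, a loess trend subtracted, the mean of all probe sets and without dim genes. With the Z-score among probe sets of like brightness 0 were lower, with ratio limits of 2 and 0.5 also 0, and with the second probe set of Echs1, chosen after seeing the data, 0. With the ratio alone 1 was higher (Pex11a) and 2 were lower (Acadvl and Echs1), against 1.98% and 1.83% of all gene symbols. The median of the 39 genes ranged from −0.15 to −0.08 over the alternatives, that of mitochondrial genes from −0.21 to −0.14, that of peroxisomal genes from −0.11 to −0.02, and their difference from −0.15 to −0.05, the last without dim genes. Of 118 gene values that an alternative could change 1 moved by 0.1 or more, Echs1 to −0.77 with the mean of its probe sets. A further 9 changed sign, in genes whose log2 ratio was within 0.04 of 0, and 6 values of Acads and Etfdh moved off 0. Centring, quantile normalization and the loess trend moved the median gene by −0.05, −0.04 and −0.04.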
